A study of Mus musculus with 4 samples.

Results

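The let-7 and miR-98 family was described in small RNA of mouse sperm, as reads of 18 nt or longer whose annotation named only let-7a, let-7b, let-7c, let-7d, let-7e, let-7f, let-7g, let-7i or miR-98. Copy numbers such as the final digit of let-7a-1 were dropped, and reads shared by let-7a and let-7c kept a joint name. This gave 9 hairpin names, 1 joint name and 121 distinct sequences, of 389 miRNA names and 2783 miRNA sequences in all. The study compared 2 libraries from control mice, left alone apart from feeding and cage cleaning, with 2 libraries from the group labelled Mdd, in which daily stressors such as cage tilt, strobe light, restraint and isolation came in random order (chronic unpredictable mild stimulation, used to produce depressive-like behaviour). All 4 libraries carry the strain label C57BL. The labels give RNA from sperm in the extraction protocol, whereas the tissue and cell type fields say testis and testicular cells. The sources used here do not give the age or number of the mice, the length of the exposure or any pooling, and do not say whether the 2 libraries of a group came from separate animals. The p-values below are therefore about the spread of these 4 libraries, part or all of which may be technical.

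MicroRNAs are cut from a hairpin precursor by Drosha and then Dicer, and 1 arm of the resulting duplex, here the 5p arm, is usually kept by an Argonaute protein. Bases 2 to 8 of the miRNA, the seed, pair with target mRNAs, whose translation and stability then fall. The let-7 family is one of the most conserved miRNA families, rises as cells differentiate and represses growth genes such as Lin28, Hmga2 and Ras, while LIN28 proteins block its precursors and recruit enzymes that add U to their 3′ ends. miR-98 is a member with a different name.

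The 9 members differ outside the seed, so they are told apart by a few bases, which are shown because every assignment below rests on them. All 9 RefSeq 5p sequences (GRCm38.p6) were matched. They are given 5′ to 3′ with the seed in capitals.
mmu-let-7a: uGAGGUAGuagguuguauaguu
mmu-let-7b: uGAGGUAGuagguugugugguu
mmu-let-7c: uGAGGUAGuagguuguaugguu
mmu-let-7d: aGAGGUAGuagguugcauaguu
mmu-let-7e: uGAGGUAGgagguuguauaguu
mmu-let-7f: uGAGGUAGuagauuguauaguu
mmu-let-7g: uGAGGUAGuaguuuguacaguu
mmu-let-7i: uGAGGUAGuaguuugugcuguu
mmu-miR-98: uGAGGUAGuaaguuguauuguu

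All are 22 nt long and share 1 seed. Counted from 1 at the 5′ end and with the base of let-7a first, let-7c differs from let-7a by A19G, let-7e by U9G and let-7f by G12A. let-7b differs by A17G and A19G, let-7d by U1A and U16C, let-7g by G12U and U18C, and miR-98 by G11A and A19U. let-7i is the most distant, with G12U, A17G, U18C and A19U. A 5p read that stops before base 19 cannot separate let-7a from let-7c, and the 3p arms of let-7a-1 and let-7c-2 are identical. The joint name holds both kinds: 2 of its 8 sequences are 5p (20, 102, 115 and 14 reads) and 6 are 3p (13, 63, 39 and 11 reads), in the library order given below. Of 1679 RefSeq mouse mature sequences, 11 (0.655%) carry the seed GAGGUAG. The other two are let-7k, which had no read of 18 nt or longer in any library, and miR-1961, whose RefSeq sequence of 17 nt lies under that length and could not have been counted.

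The hairpins lie at 12 places in the mouse genome (GRCm38.p6, strand in brackets, GENCODE M21 context). let-7a-1, at chr13:48538179-48538272 (-), let-7f-1, at chr13:48537829-48537917 (-), and let-7d, at chr13:48536012-48536114 (-), are exonic in the lincRNA gene 6720427I07Rik. let-7c-2, at chr15:85706603-85706697 (+), and let-7b, at chr15:85707319-85707403 (+), are exonic in the transcript Lncppara. let-7f-2, at chrX:151912346-151912428 (+), and miR-98, at chrX:151913214-151913321 (+), are in an intron of Huwe1, a ubiquitin ligase gene. Introns of protein-coding host genes also hold let-7g, in Wdr82 at chr9:106178840-106178927 (+), and let-7e, in Spaca6 at chr17:17830352-17830444 (+). let-7c-1, at chr16:77599657-77599750 (+), is in an intron of Mir99ahg, and let-7a-2, at chr9:41536716-41536811 (+), in an intron of the non-coding gene 3110039I08Rik. let-7i, at chr10:122985640-122985724 (-), is in an exon of the transcribed pseudogene D630033A02Rik.

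Values are given in the order control replicates 1 and 2, then Mdd replicates 1 and 2. Reads of 18 nt or longer with a miRNA annotation numbered 71902, 263748, 198947 and 94011, and levels are CPM, a read count scaled to that total. Counted by copies, genome-matched sequences of any class fell in number from the lowest copy numbers and then peaked again at 7, 10, 38 and 8 copies. These are called the usual copies. Reads are therefore not taken as independent molecules, and Mdd replicate 1 may hold fewer of them than its depth implies. Control replicate 2 stood apart: the summed level of 7 striated muscle miRNAs, 6 of them detected and miR-208a at 0, was 67546 CPM there and 1508 to 4256 CPM in the other 3. The summed level of 7 erythroid and leukocyte miRNAs was 6548 CPM there and 46967 to 59921 CPM in the others. The groups did not overlap in either sum. Striated muscle was at 4256 and 67546 CPM in controls against 1508 and 1649 CPM in Mdd, so lower in Mdd. Erythroid and leukocyte was at 46967 and 6548 CPM in controls against 59921 and 50334.5 CPM in Mdd, so higher in Mdd. The 16 germ cell miRNAs were all detected and summed to 334330, 162784, 375648 and 280467 CPM. At low counts, miR-202 of gonadal somatic cells (473, 315, 5 and 96 CPM) and miR-122 of liver (389, 273, 5 and 0 CPM) were also lower in both Mdd libraries. The sums for smooth muscle and endothelium, neurons and epithelium overlapped between the groups. Whether the cell mix differed between the groups was not tested. Reads under 18 nt were 24.4% and 27.0% of all reads in controls but 1.18% and 1.27% in Mdd, so longer reads alone were compared.

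The family held 8447, 21666, 21594 and 7009 reads, or 11.7%, 8.21%, 10.9% and 7.46% of miRNA reads. The higher values were those of 1 control and 1 Mdd library. Control libraries averaged 9.98% ± 2.50 and Mdd libraries 9.15% ± 2.40 (SD, n = 2 each). The difference of -0.83 percentage points was smaller than either SD (exact two-sided permutation p = 0.667, where the smallest p that 2 against 2 libraries can give is 0.333). As a share of all reads of 18 nt or longer the family held 0.0870%, 0.129%, 0.0909% and 0.0294%, with Mdd replicate 2 lowest and the groups overlapping (exact permutation p = 0.667). In bulk RNA, fewer cells of a type and less RNA per cell cannot be told apart.

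The most abundant member was mmu-let-7a, at 40875, 15989, 41946 and 19030 CPM, and ranked 5, 15, 5 and 12 among 250 to 344 miRNA names. It is made from 2 hairpins whose 5p arms are identical. Its high libraries were 1 of each group, and the groups overlapped. The let-7c miRNA (mmu-let-7c), also made from 2 hairpins, came next at 29777, 14158, 23408 and 22434 CPM, with control replicate 2 lowest. let-7a exceeded let-7c in 3 of 4 libraries, and their order is not set beyond the spread of the libraries.

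let-7g was measured at 12656, 13073, 12471 and 7765 CPM. let-7f stood at 12253, 14749, 9912 and 7925 CPM. For both, each Mdd library was below each control library, by little for let-7g in Mdd replicate 1. let-7d was at 4923, 7939, 8560 and 5063 CPM, with the high library of each group far from the low one. let-7b was at 6078, 4064, 7349 and 6691 CPM, and both Mdd libraries were above both controls. Each of these names ranked between 16 and 58 among miRNA names in every library.

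Of the 7 abundant names, mmu-let-7i had the widest gap between the groups, at 9318 and 10567 CPM in controls (9943 ± 883, SD, n = 2) against 3674 and 4446 CPM in Mdd (4060 ± 546, SD, n = 2). The groups did not overlap, and the gap was wider than the spread within either. As a share of family reads let-7i took 7.93%, 12.9%, 3.39% and 5.96%, again without overlap. Reads behind these levels numbered 670, 2787, 731 and 418, or 95.7, 279, 19.2 and 52.3 when divided by the usual copies.

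The lowest names were let-7e, a joint name and miR-98. mmu-let-7e was at 848, 508, 276 and 596 CPM, the joint name let-7a/let-7c at 459, 626, 774 and 266 CPM, and mmu-mir-98 at 292, 474, 171 and 340 CPM. All of these values lie below those of the other 7 names, which ran from 3674 to 41946 CPM. Among neighbours in the order, the ranges of let-7c and let-7g did not meet, and all other neighbouring ranges within the 2 sets overlapped. miR-98 rested on 21, 125, 34 and 32 reads. A count of 0 would allow up to 3 reads, or 21, 30, 114 and 24 reads at the usual copies, so in Mdd replicate 1 both let-7e (55 reads) and miR-98 (34 reads) lie under the second limit, and miR-98 in control replicate 1 lies at it.

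**Figure D1:**
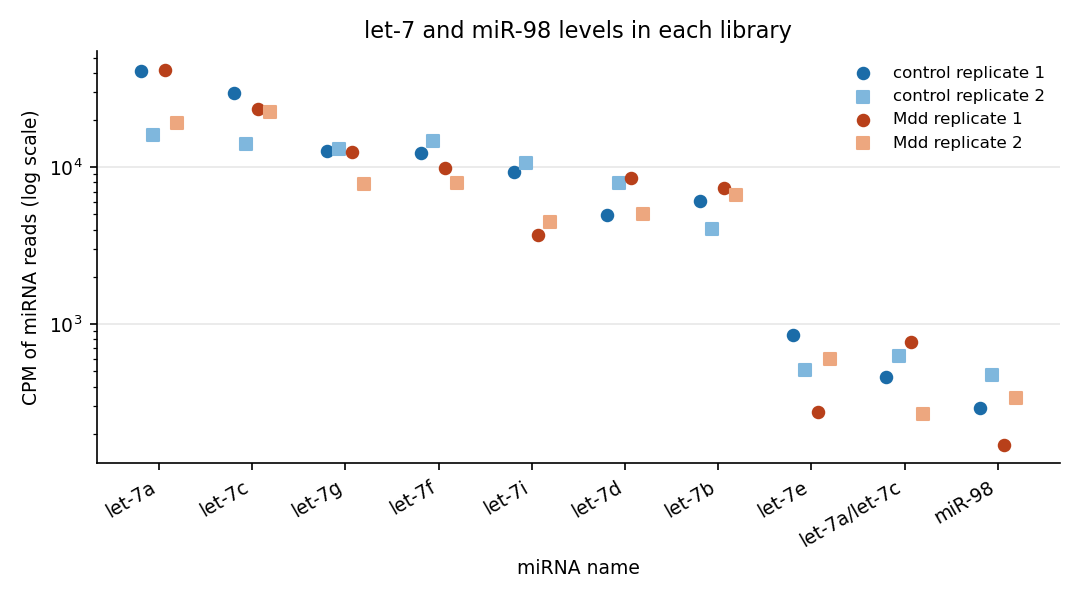
Level of each family name in each library, as CPM of miRNA reads of 18 nt or longer on a log axis, with names ordered by mean level. let-7a runs from 15989 to 41946 CPM with both groups mixed, whereas both Mdd points of let-7i (3674 and 4446) lie below both control points (9318 and 10567).

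None of the 10 family names passed the test between Mdd and control. The lowest adjusted p was that of let-7i, with a log2 fold change of -1.26 (SE 0.63, unadjusted p = 0.0747, adjusted p = 0.806, edgeR quasi-likelihood test with Benjamini-Hochberg adjustment over 236 names). edgeR called 0% of the 236 names tested at an adjusted p under 0.05, and 4.66% (11 names, none of the family) had an unadjusted p under 0.05. DESeq2 called 2.97% (7 names), none of the family, with an adjusted p of 0.733 for let-7i, and the adjusted p of let-7i ran from 0.419 to 0.99988 over all settings run. Without control replicate 2, the library high in muscle miRNAs, the log2 fold change of let-7i was -1.07, and over the 16 other settings run it stayed negative, between -1.07 and -2.28. The other names had fitted log2 fold changes of -0.60 (SE 1.54) for miR-98, -0.59 (SE 1.26) for let-7e, -0.56 (SE 0.65) for let-7f and -0.29 (SE 0.66) for let-7g. let-7a/let-7c stood at -0.01 (SE 1.30), let-7d at 0.11 (SE 0.68), let-7c at 0.15 (SE 0.71), let-7a at 0.22 (SE 0.80) and let-7b at 0.54 (SE 0.63).

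The members did not share a direction: 4 fitted values were positive and 6 negative, with a median of -0.15 against -0.04 over all 236 names, of which 47.9% were positive and 52.1% negative. Groups did not overlap for let-7f, let-7g and let-7i, all lower in Mdd, and for let-7b, higher in Mdd. Among all names tested, 21.6% were lower and 16.5% higher in Mdd without overlap. With the library size of all reads of 18 nt or longer as the scale, which moved the median of all names to -1.10, every family value was negative, from -0.31 for let-7b to -2.28 for let-7i.

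**Figure D2:**
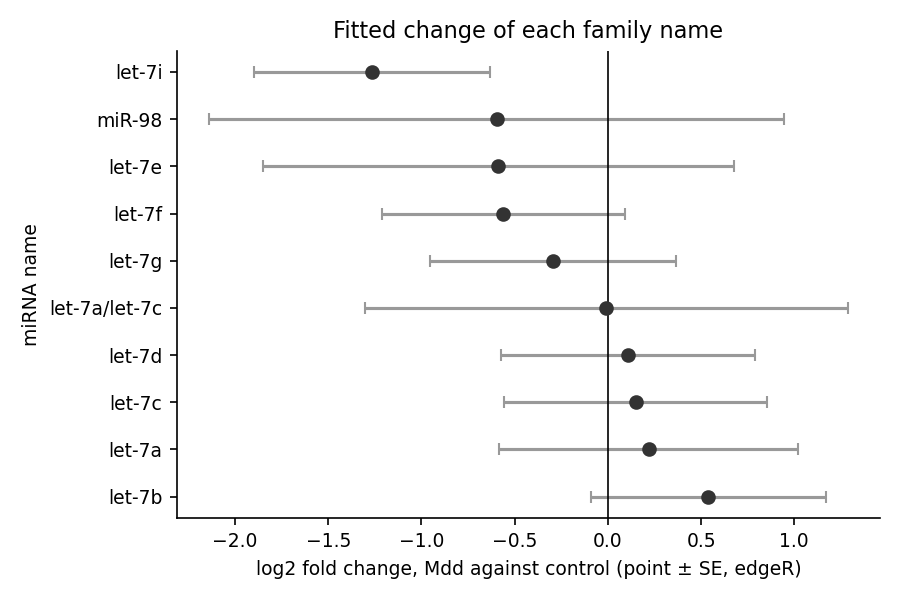
Fitted log2 fold change of each family name, Mdd against control, with points for edgeR estimates and bars for 1 SE. let-7i at -1.26 is the value whose bar lies wholly on the negative side, and 4 names are positive.

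The hairpins let-7a-2, let-7c-1 and let-7e lie beside hairpins of miR-99, miR-100 and miR-125. miR-125 is the relative of lin-4, which like let-7 was found as a regulator of developmental timing in worms. miR-125b was at 8303, 8842, 2905 and 4053 CPM, with both Mdd libraries below both controls (log2 fold change -1.27, SE 0.64, unadjusted p = 0.0751, edgeR adjusted p = 0.806). miR-99a was at 10626, 36717, 12802 and 10999 CPM, with control replicate 2 far above the rest. The fitted log2 fold changes of miR-99a, miR-99b, miR-100 and miR-125a were -1.01, -0.16, 0.08 and -0.28, and 0 of these 5 neighbours were called. The 3 miRNA names of at least 1000 CPM whose levels over the 4 libraries lay nearest to the family sum were miR-125a, miR-463 and miR-182, of 93 such names. Their root mean square distances were 0.18, 0.18 and 0.21 log2 units. With 4 libraries this likeness is a description only.

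The 5p arm made up nearly all of the family, with 8366, 21417, 20975 and 6831 reads, against 81, 248, 619 and 178 from the 3p arm and 1 read from a loop. The 3p share was 0.959% and 1.14% in controls (1.05% ± 0.13, SD, n = 2) and 2.87% and 2.54% in Mdd (2.70% ± 0.23, SD, n = 2). Both Mdd libraries were above both controls, by 1.65 percentage points on average, and the exact two-sided permutation p of 0.333 is the smallest these libraries can give. With reads divided by the usual copies, 95% Wilson intervals were 0.57% to 1.73%, 0.783% to 1.70%, 1.74% to 4.53% and 1.66% to 3.77%, so the interval of Mdd replicate 2 overlaps those of both controls. These intervals cover counting error only.

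let-7d supplied most 3p reads, 63, 132, 527 and 96, which was 17.8%, 6.30%, 30.9% and 20.2% of all let-7d reads. Without let-7d the 3p share of the family was 0.222%, 0.593%, 0.463% and 1.26%, and the groups overlapped. let-7e, the other member with a sizeable 3p share, had 61, 103, 2 and 29 reads from the 5p arm and 0, 31, 53 and 27 from the 3p arm. In Mdd replicate 1 the 53 3p reads of let-7e were 1 sequence, in the library whose usual copies were 38. The 3p reads that rest on these names are the following, as read, with no seed marked.
let-7d 3p, 22 nt: ctatacgacctgctgcctttct
let-7d 3p, 20 nt: ctatacgacctgctgccttt
let-7e 3p, 21 nt: ctatacggcctcctagctttc
let-7a-1 or let-7c-2 3p, 21 nt: ctatacaatctactgtctttc

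The 22 nt let-7d 3p form had 32, 62, 301 and 26 reads and overlapped between groups. The 20 nt form had 8, 33, 159 and 33 reads and was higher in Mdd in CPM without overlap (log2 fold change 2.38, SE 1.63, edgeR adjusted p = 0.960). The let-7e form had 0, 2, 53 and 20 reads and the let-7a-1 or let-7c-2 form 0, 21, 39 and 11. None of these 4 was called. Some reads match only 1 copy of a member that has 2. On the 5p arm these are the few reads that run past the shared bases at either end, with 30, 45, 87 and 15 for let-7f-2 and 0, 13, 0 and 6 for let-7f-1. Such reads numbered 10, 26, 0 and 0 for let-7a-1, 8, 12, 0 and 0 for let-7c-1, and 0, 0, 2 and 11 for let-7c-2. The let-7f-2 reads are 1 sequence, the 22 nt form plus T, and a let-7f-1 read with an added T would read the same. Added T bases could likewise give the let-7c-2 reads and the 24 nt reads of let-7a-1. For these sequences the match does not settle the copy. On the 3p arm let-7c-1 gave 8 3p reads in control replicate 2 and 0 in the others, let-7f-2 gave 11 in Mdd replicate 2 and 0 in the others, and let-7a-2 and miR-98 gave 0 in each library. The 11 reads of let-7f-2 were 1 sequence of 37 nt whose start lay at -16 bases from the RefSeq 3p start. It is longer than a mature 3p read but is counted in the 3p share of Mdd replicate 2.

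Nearly all 5p reads began at the RefSeq first base, which keeps the seed in place. The share that began elsewhere was 1.05%, 2.04%, 1.38% and 1.20% (controls 1.54% ± 0.70, Mdd 1.29% ± 0.13, SD, n = 2 each, exact permutation p = 1). Most of those began 1 base later, with 59, 270, 290 and 62 reads. Starts 1 base earlier were seen in the controls alone, with 28 and 33 reads against 0 and 0, where a count of 0 allows up to 3 reads, or 114 and 24 reads at the usual copies.

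The 3′ end was less fixed. The share of 5p reads that ended at the RefSeq last base was 58.7%, 57.8%, 50.3% and 64.4% (controls 58.2% ± 0.62, Mdd 57.4% ± 10.004, SD, n = 2 each, exact permutation p = 1). The 2 Mdd libraries lay on either side of the controls. Reads 1 base short made up 31.2%, 32.0%, 37.2% and 27.9%, and reads 1 base longer 5.47%, 4.05%, 4.97% and 4.83%. Over all miRNAs outside the family, with reads from a mature start, the share at the RefSeq end was 45.0%, 43.7%, 45.0% and 43.1%, against 58.6%, 57.9%, 50.4% and 63.5% for family reads counted the same way. The family was higher in 4 of 4 libraries, by 13.4 percentage points on average (SD 6.14 over libraries). An exact sign-flip permutation over 4 libraries gave p = 0.125, its smallest value. RefSeq ends and hairpin bases are the same in each library, so the libraries are not replicates of this difference. A T added to a 5p family read 1 base short also counts as ending at the RefSeq end. The same sign in 4 libraries therefore does not show that family 3′ ends are more fixed.

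**Figure D3:**
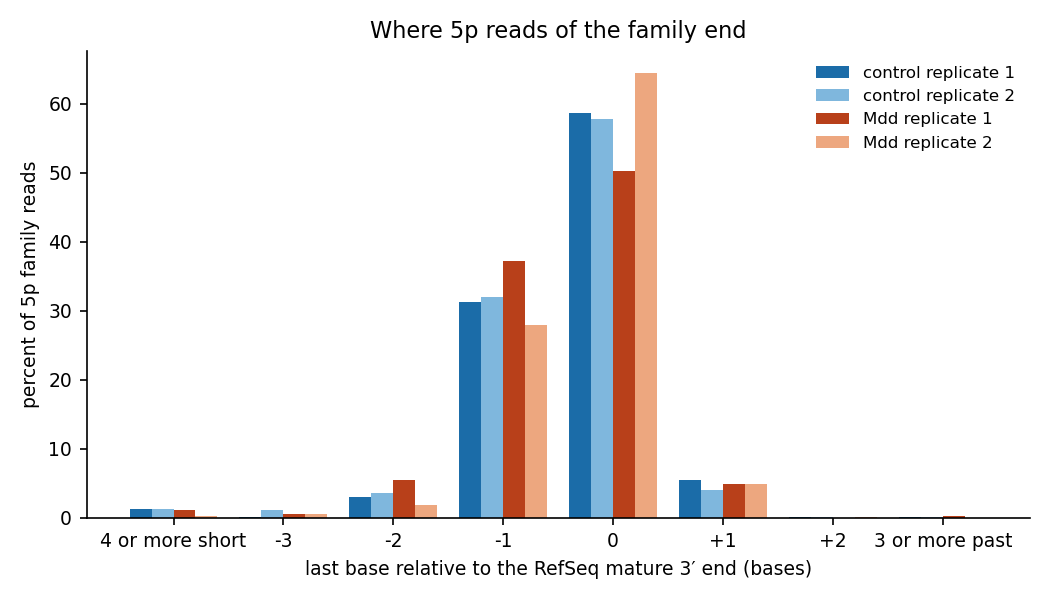
Percent of 5p family reads in each library by the distance of the last base from the RefSeq mature 3′ end, with 0 at that end and negative values for shorter reads. The RefSeq end holds 50.3% to 64.4% of reads and the form 1 base short 27.9% to 37.2%.

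The form 1 base short differed between members and between libraries. These are the 22 nt and 21 nt forms of let-7g and let-7i, chosen after their values were seen, with the seed in capitals.
let-7g, 22 nt: tGAGGTAGtagtttgtacagtt
let-7g, 21 nt: tGAGGTAGtagtttgtacagt
let-7i, 22 nt: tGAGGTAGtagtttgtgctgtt
let-7i, 21 nt: tGAGGTAGtagtttgtgctgt

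The 21 nt form of let-7g took 38.2%, 43.7%, 75.8% and 41.6% of the pair, so Mdd replicate 1 stood far from the other 3 libraries. There the 21 nt form had 1729 reads and the 22 nt form 551. For let-7i the 21 nt form took 13.8%, 20.4%, 8.26% and 7.49% of the pair, with both Mdd libraries below both controls. The ranges of the other well-covered members over the 4 libraries were 37.5% to 44.6% for let-7a, 21.9% to 31.7% for let-7b, 25.3% to 34.4% for let-7c, 33.3% to 55.4% for let-7d and 22.6% to 40.2% for let-7f, and their groups overlapped. let-7e and miR-98 had too few reads for this share to be read.

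**Figure D4:**
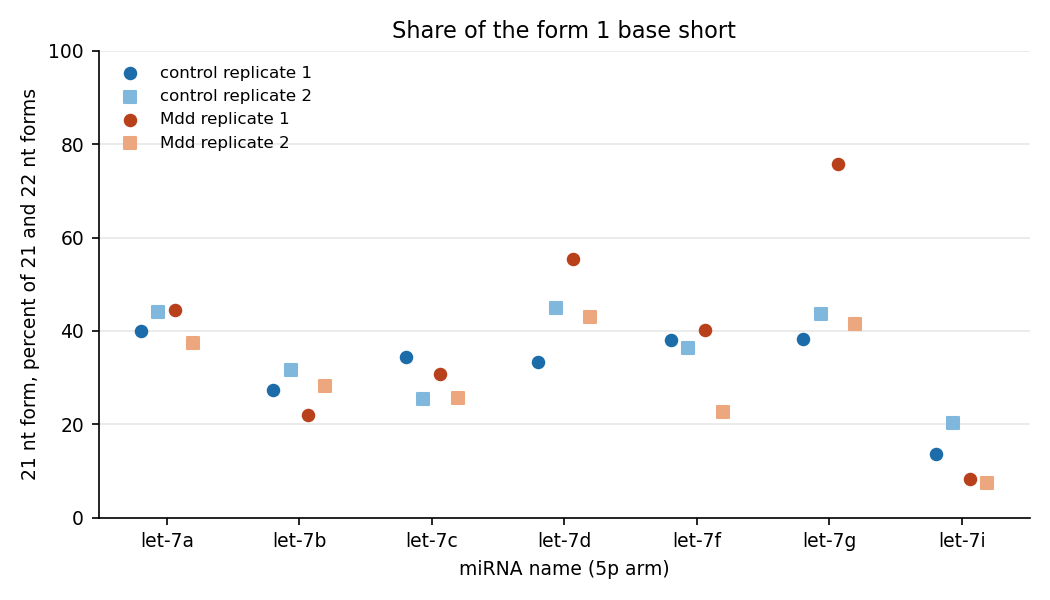
Reads of the 21 nt form as a percent of the 21 and 22 nt forms for 7 members, 1 point per library. let-7g in Mdd replicate 1 lies at 75.8% against 38.2% to 43.7% elsewhere, and let-7i lies lowest, between 7.49% and 20.4%.

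Single sequences were tested next, 754 miRNA sequences in all and 46 of the family, which held at least 97.3% of family reads in each library. The rest of the family sequences did not pass the filter on low counts. The 12 sequences of highest mean CPM held 86.3%, 80.1%, 83.8% and 84.3% of family reads. They are the 22 nt forms of let-7a, let-7b, let-7c, let-7d, let-7f, let-7g and let-7i, the 21 nt forms of let-7a, let-7c, let-7f and let-7g, and the 20 nt form of let-7a. Of the 121 sequences 32 were found in all 4 libraries and 49 in 1 library, 36 of these in control replicate 2, the deepest in miRNA reads.

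edgeR called 0% of the 754 sequences at an adjusted p under 0.05 and DESeq2 called 2.06% of the 681 it gave an adjusted p, and neither called a family sequence. Fitted values were positive for 22 and negative for 24 of the 46 family sequences, against 49.9% positive and 50.1% negative overall. The groups did not overlap for 15 family sequences lower and 6 higher in Mdd, where 23.2% and 14.5% of all sequences did so. Both counts include sequences that passed the filter on low counts through 1 group alone. Examples are an 18 nt form of let-7i (21, 22, 1 and 0 reads) and the 21 nt let-7e 3p form (0, 2, 53 and 20 reads). Their direction was fixed in advance, so these counts are not a result about the family. Unadjusted p was under 0.05 for 4 family sequences, where 8.89% of all sequences had such a p. All 4 were lower in Mdd. The 21 nt form of let-7i, printed above, had 86, 490, 50 and 29 reads (1196, 1858, 251 and 308 CPM, log2 fold change -2.40, SE 1.03, unadjusted p = 0.0366, edgeR adjusted p = 0.534). The others have fewer reads still, at 0 in both Mdd libraries and 6 to 36 in controls: an 18 nt form of let-7g, a 24 nt form of let-7a and the 22 nt 3p form of let-7a-1 or let-7c-2. They passed the filter on low counts through the controls alone, so their direction was fixed in advance and is not a result.

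By the 22 nt forms alone, let-7i had 539, 1913, 555 and 358 reads, or 7496, 7253, 2790 and 3808 CPM (log2 fold change -1.10, SE 0.77, edgeR adjusted p = 0.985). The groups did not overlap there either. let-7g at 22 nt was 6996, 6510, 2770 and 4244 CPM, with both Mdd libraries lower (log2 fold change -0.89, SE 0.77, not called), and let-7g at 21 nt was 4325, 5054, 8691 and 3021 CPM, with Mdd replicate 1 highest. In that library the 22 nt form of let-7g was thus at its lowest and the 21 nt form at its highest of the 4 libraries.

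All 121 family sequences were marked as matching the genome, so the family share without a match was 0% in each library, which allows a share of up to 0.0355%, 0.0138%, 0.0139% and 0.0428%, or 0.249%, 0.138%, 0.528% and 0.342% at the usual copies. Reads like let-7 that do not match the genome exist in the files under other labels. The 0% and its limits therefore hold for reads with a family label and do not bound such reads. They were collected after the values had been seen, as reads of 18 nt or longer that begin at a family mature start and either depart from the hairpin in the last 1 to 4 bases (called tailed here) or hold 1 substitution. A final substitution cannot be told from a 1 nt tail. Substitutions were sought in the first 18 bases, so a later changed base within the last 4 bases was counted as a tail. An added base that equals the next hairpin base is not seen as a tail. There were 404 such sequences with 507, 1714, 1229 and 669 reads, and 368 of them were labelled piRNA and 36 had no annotation. They came to 5.66%, 7.33%, 5.38% and 8.71% of family and variant reads together (controls 6.50% ± 1.18, Mdd 7.05% ± 2.35, SD, n = 2 each, exact permutation p = 1).

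By these rules tailed reads were the main kind, with 423, 1430, 1099 and 503 reads, against 84, 284, 130 and 166 with a substitution. A single A was the tail of 28.4%, 32.9%, 58.8% and 28.8% of tailed reads, and a single T of 28.1%, 32.9%, 24.7% and 33.8%. Mdd replicate 1 stood apart in the A share. Its 646 reads with a single A include 154 of 1 let-7g sequence and 140 of 1 let-7c sequence. Usual copies were 38 in that library, so few molecules may stand behind this share. The tailed sequences with most reads show both bases and both arms, with the tail in capitals.
let-7a-1 or let-7c-2 3p with T: ctatacaatctactgtctttcT
let-7i 5p with T: tgaggtagtagtttgtgctgttT
let-7c 5p with A: tgaggtagtaggttgtatggttA
let-7g 5p with A: tgaggtagtagtttgtacagttA
let-7c 5p, 1 base short, with A: tgaggtagtaggttgtatggtA
let-7i 5p with A: tgaggtagtagtttgtgctgttA

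The first had 43, 203, 148 and 32 reads, more in each library than all genome-matched 3p reads of the same hairpins (13, 63, 39 and 11). let-7i with T had 11, 154, 49 and 72 reads, and with A 14, 124, 3 and 21. let-7c with A had 44, 36, 140 and 4 reads, and its form 1 base short 17, 76, 65 and 22. let-7g with A had 0, 30, 154 and 1, so 154 of its 185 reads were in Mdd replicate 1.

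In 4 of 4 libraries the tailed share was higher on the 3p arm: 47.1%, 54.0%, 31.5% and 45.4% of 3p reads against 4.03%, 5.05%, 3.74% and 4.94% of 5p reads, with tailed reads counted in both. On the 3p arm a single T was the tail of 90.3%, 84.2%, 77.9% and 43.9% of tailed reads. On the 5p arm a single T made 15.4%, 19.8%, 6.14% and 29.6% and a single A 34.2%, 40.7%, 71.9% and 18.9%. A T added to a 21 nt 5p form gives the 22 nt form and is not seen as a tail. A T added to the 22 nt form of let-7a matches its hairpins too, and that 23 nt form had 171, 151, 491 and 56 reads. The same holds for let-7b, let-7c, let-7d and let-7g, and for let-7f on its let-7f-2 hairpin. T tails of 5p reads can thus be undercounted, and the 5p and 3p arms are not compared on equal terms. The tailed share of 3p reads was lower in both Mdd libraries (50.5% ± 4.90 against 38.5% ± 9.81, SD, n = 2 each, exact permutation p = 0.333, the smallest possible). Counted with tailed and substituted reads, the 3p share of the family was 1.71%, 2.31%, 3.99% and 4.25%, and the groups again did not overlap.

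The tailed share was also set against that of other miRNAs. Of reads from a mature start, 4.82%, 6.32%, 4.91% and 6.80% were tailed in the family and 14.9%, 13.3%, 16.4% and 16.5% in the other miRNAs. The family was lower in 4 of 4 libraries, with a mean difference of -9.56 percentage points (SD 1.91), with an exact sign-flip permutation p of 0.125, the smallest that 4 libraries allow. The next hairpin base decides which added bases are seen, and its effect on the other miRNAs was not measured. Hairpin sequences are the same in each library, so the same sign in 4 libraries does not show less tailing of the family.

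**Figure D5:**
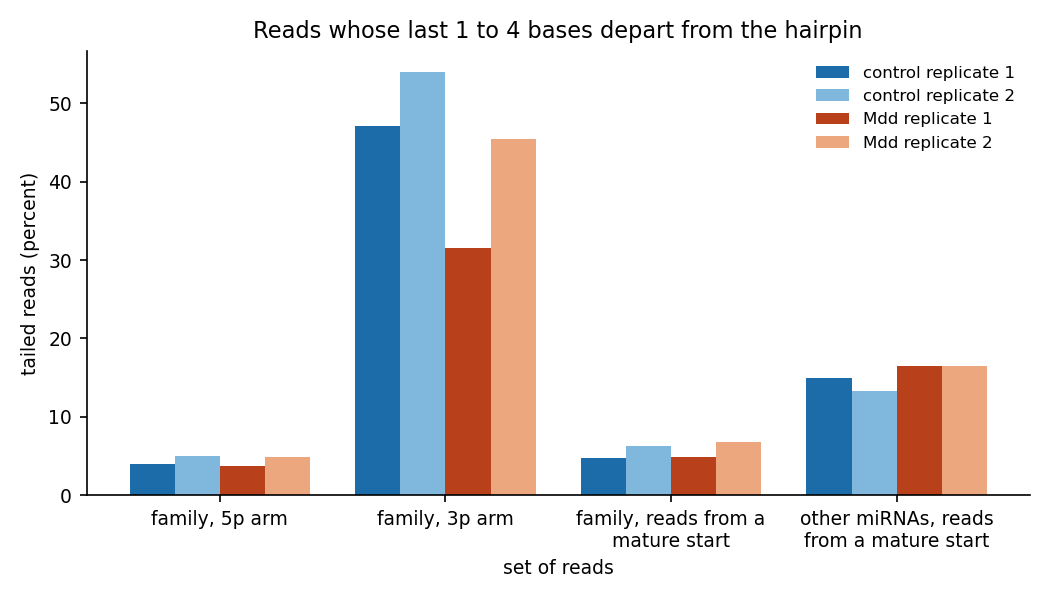
Percent of reads in each library whose last 1 to 4 bases depart from the hairpin, for the 5p and 3p arms of the family and, among reads from a mature start, for the family and all other miRNAs. The 3p arm (31.5% to 54.0%) stands above the 5p arm (3.74% to 5.05%), and the family (4.82% to 6.80%) below other miRNAs (13.3% to 16.5%). An added base that equals the next hairpin base is not seen, so these sets are not compared on equal terms.

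Family reads of 15 to 17 nt were left out of all levels above, and numbered 184, 1547, 406 and 183 over 37 sequences. In both Mdd libraries 100% of them ended where the next bases of at least 1 hairpin they fit read TGG (read strand only), against 38.6% and 35.0% in the controls. The read with the highest sum over the libraries is one of 17 nt that fits let-7c, followed there by TGG, and equally let-7a, followed there by TAG, so the share holds only with that read given to let-7c. UGG occurs in 2 of the 9 family 5p sequences and in 44.3% of RefSeq mouse mature miRNAs. The 2 are let-7b and let-7c, shown with TGG in capitals.
let-7b: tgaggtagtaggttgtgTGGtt
let-7c: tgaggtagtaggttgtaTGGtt

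The 17 nt read before TGG in let-7b had 17, 204, 67 and 97 reads, and the 17 nt read shared by let-7a and let-7c had 54, 316, 339 and 86. Those of let-7b came to 3.74%, 16.0%, 4.38% and 13.4% of let-7b reads with them counted. The 34 sequences of this length that ended elsewhere had 113 and 1005 control reads, against none in either Mdd library. The sources used here do not give how reads were trimmed, and trimming may have differed between the groups, which cannot be told apart from treatment in this design. The part of these short reads in the levels of let-7b, let-7a and let-7c was not tested.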

How the data were processed

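Small RNA was sequenced in 2 control and 2 Mdd libraries. Per the file headers, the authors deposited 1 row per distinct sequence of 15 to 45 nt with its raw read count, length, genome match and annotation. mm9 and DESeq2 are named in the submitters' processing notes, while aligner, trimming and annotation releases were not given in the sources used here. Files were joined by sequence. The annotation came from the first library that gave one, and every family sequence had the same family label in each file where it occurred. Deposited counts of reads of 18 nt or longer, the shortest length selected per the labels, were summed per miRNA name and kept per sequence. Arms and ends come from exact placement on RefSeq hairpins. The smoothed number of genome-matched sequences (window of 3 copy numbers, all lengths and classes) fell to a first minimum at 3, 3, 11 and 4 copies. Its highest point beyond that minimum, at 7, 10, 38 and 8 copies, gave the usual copies.

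edgeR 4.0.16 (quasi-likelihood test, TMM, filterByExpr, two-sided) in R 4.3.3 was run on whole tables, with p-values adjusted by Benjamini-Hochberg (0.05), and tested on simulated data. Each SE is the absolute log2 fold change over the square root of F. DESeq2 1.42.0 was the alternative tool. Shares were compared by exact two-sided permutation over libraries. Python 3.11.15 and pandas 2.3.3 made the tables. Wilson intervals and the floor of 3 counts cover counting error only. All hairpin names were described, with the 12 sequences of highest mean CPM, the top 3p reads, the top reads without a genome match, cluster neighbours and the 3 names nearest to the family sum (log2 of CPM plus 10, centred). The members and lists were chosen with earlier results of these data known. Alternatives were other scalings, tools, filters, lengths, a replicate block, deposited annotation and each library left out. Counting tailed and substituted reads, counting distinct sequences and dividing by the usual copies were chosen after seeing the data.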

Additional observations from a re-analysis of the deposited data

How the results depend on the processing

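No family name or sequence was called by edgeR or DESeq2 in any setting run. Counts of all names called, 0 as reported, were 5 with the library size of all reads, 7 with DESeq2, 6 without a filter, 6 at a mean CPM of at least 10, 1 with robust dispersion, 4 with the replicate block, 1 with all lengths and 4 with counts divided by the usual copies. Leaving out 1 library gave 0 to 16, with 16 without Mdd replicate 2. Counts of sequences called, also 0, were 14 with DESeq2, 6 without a filter, 8 at a mean CPM of at least 10, 6 with robust dispersion, 6 with the replicate block, 4 with all lengths, and 4 to 13 with 1 library left out. Replicate numbers are shared between groups by number only. Same-numbered libraries did not deviate together (Pearson r = -0.03 across 236 names, which are not independent replicates), and the block left let-7i at -1.25.

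Of 157 values of members under other settings, 140 kept their sign. let-7e, let-7f, let-7i and miR-98 stayed negative in each. With the library size of all reads, let-7a, let-7b, let-7c and let-7d turned to -0.38, -0.31, -0.64 and -0.82. The joint name let-7a/let-7c, at -0.01, became 0.15 with RLE scaling, 0.15 with DESeq2, 0.13 without a filter, 0.13 at a mean CPM of at least 10 and 0.52 with all lengths. With 1 library left out, let-7a ran from -0.55 (without Mdd replicate 1) to 0.85 and was -0.26 without control replicate 2. let-7c ran from -0.24 (without control replicate 2) to 0.59. let-7d ran from -0.42 (without Mdd replicate 1) to 0.62 and was -0.31 without control replicate 1. let-7g ran from -0.77 to 0.16 (without Mdd replicate 2). let-7a/let-7c ran from -1.09 to 0.71 (without Mdd replicate 2) and was 0.35 without control replicate 2.

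The family share of miRNA reads differed by -2.59 to 0.94 percentage points with 1 library left out, turning positive at 0.94 without control replicate 1 and 0.87 without Mdd replicate 2. The 3p share differed by 1.49 to 1.81 points with 1 library left out and by 1.52 to 2.11 under other settings. The share at the RefSeq 3′ end turned to 0.16 points with all lengths and ran from -7.95 to 6.20, positive without Mdd replicate 1. The share with a shifted start ran from -0.74 to 0.24, positive without control replicate 2. With tailed and substituted reads counted, the share without a genome match differed by 0.55 points. The cause was not tested for any of these. Depth limits let-7e and miR-98, which rest on 134 reads or fewer per library.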
